A study of Mus musculus with 32 samples.

Results

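Oxidative phosphorylation is carried out by 4 electron-carrying complexes and the ATP synthase, which sit in the inner mitochondrial membrane. Complex I takes electrons from NADH, complex III passes them from ubiquinol to cytochrome c, complex IV (cytochrome c oxidase) hands them to oxygen, and complex V (ATP synthase) uses the resulting proton gradient to make ATP. Most subunits are encoded in the nucleus and imported, the rest by mitochondrial DNA, and striatal projection neurons, the cells lost first in Huntington disease, depend heavily on this pathway.

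The genes described here are the nuclear-encoded subunits of complexes I, III, IV and V, taken by symbol (Nduf, Uqcr, Cox4 to Cox8 and Atp5) in libraries of mouse striatum. Of 103 symbols that matched, 13 were pseudogenes and 7 had too few counts (at least 10 counts in at least 8 libraries were asked for), which left 83 members among 55415 deposited features. Complex I had 36 members, complex III 8, complex IV 14 and complex V 16. The symbols also caught 8 complex I assembly factors, Ndufaf1 to Ndufaf8, and Atp5s, which are not subunits. The member nearest the count threshold was Cox4i2, with at least 10 counts in 15 libraries, and just outside it Cox7b2 had that many in 2 libraries. All 83 members passed the filter of the statistical test.

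YAC128 mice model Huntington disease: they carry human huntingtin, with an expanded CAG repeat, as a yeast artificial chromosome transgene, here on a B6 background. The wild-type (WT) animals were their littermates. The study asked what AON12.1 did in these mice, an antisense oligonucleotide that targets the caspase-6 cleavage site of HTT. The 4 groups of 8 libraries each were YAC128 mice given AON12.1, YAC128 mice given a scrambled oligonucleotide, YAC128 mice given artificial cerebrospinal fluid (aCSF) alone, and WT mice given aCSF. Every animal had a cannula in the lateral ventricle and 3 injections of 10 µL, with 500 µg of oligonucleotide in the treated groups. Injections began at about 6 months and were repeated 2 and 4 weeks after surgery, and striatum was taken at 12 months, directly after an MRI scan. No WT group received an oligonucleotide.

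Total gene counts per library ran between 658934 and 1419313, and the members took 18604 to 38525 of them. A deposited feature with a transcript accession in place of a mouse gene identifier had 75 to 187 counts in the 24 YAC128 libraries and 0 to 6 in the WT libraries, so no library went against its genotype label. Mouse Htt averaged 102 ± 15.4 CPM with AON12.1, 101 ± 15.7 with the scrambled oligonucleotide and 105 ± 17.5 in YAC128 aCSF mice, against 89.6 ± 17.4 in WT mice (SD, n = 8 each; adjusted p = 0.587 among the 4 groups). These 3′ counts do not tell which exons a transcript holds. The 15 striatal projection neuron markers were all detected, with a summed 3774 to 12511 CPM per library. The animal numbers in the labels begin with 18 or 19, which the labels do not explain: 18 in 2 AON12.1, 2 scrambled, 4 YAC128 aCSF and 3 WT libraries, and 19 in the others.

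The promoters of 6 members that the results below turn on are printed to give the sequence context of genes that serve the same chain. Each is the 120 bases before the RefSeq start on GRCm38.p6, read 5′ to 3′ on the gene's strand, in lower case. Capitals mark matches, on either strand, to GCGCANGCG (the letters of NRF1, a transcription factor known for respiratory genes), to CCGGAAG (the letters of the ETS family, which includes GABPA) or to TACANNTCC (core letters of ZNF143), all of them short forms of longer consensus motifs. Atp5d lies at chr10:80142155-80142274 on the plus strand, Cox7c at chr13:86046796-86046915 on the minus strand, Cox5a at chr9:57521112-57521231 on the plus strand, Cox6a1 at chr5:115348959-115349078 on the minus strand, Uqcr11 at chr10:80406822-80406941 on the minus strand and Ndufs5 at chr4:123718187-123718306 on the minus strand.
Atp5d: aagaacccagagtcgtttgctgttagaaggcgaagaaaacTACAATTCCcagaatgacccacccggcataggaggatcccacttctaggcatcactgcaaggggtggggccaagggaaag
Cox7c: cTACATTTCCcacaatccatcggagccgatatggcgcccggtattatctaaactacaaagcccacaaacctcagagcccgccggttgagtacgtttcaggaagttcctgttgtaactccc
Cox5a: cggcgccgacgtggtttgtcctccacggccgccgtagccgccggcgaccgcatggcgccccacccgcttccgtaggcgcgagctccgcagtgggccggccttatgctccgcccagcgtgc
Cox6a1: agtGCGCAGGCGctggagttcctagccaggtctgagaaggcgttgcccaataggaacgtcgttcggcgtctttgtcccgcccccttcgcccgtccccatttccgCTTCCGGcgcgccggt
Uqcr11: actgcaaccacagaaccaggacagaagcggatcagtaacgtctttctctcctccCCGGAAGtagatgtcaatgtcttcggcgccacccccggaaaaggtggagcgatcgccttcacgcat
Ndufs5: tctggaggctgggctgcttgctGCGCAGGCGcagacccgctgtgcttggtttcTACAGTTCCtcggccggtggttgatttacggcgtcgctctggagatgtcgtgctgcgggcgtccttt

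A promoter window was given for 67 of the 83 members, and 250 bases before each start were searched. The NRF1 letters were found in 12 of them, or 17.9%, against 5.33% of all 27025 promoters and 12.2% of the promoters of tested genes. The ETS letters were also in 12, or 17.9%, against 7.05% of all promoters and 14.0% of those of tested genes. The ZNF143 letters, searched after they were seen in the Atp5d and Cox7c windows, were in 9, or 13.4%, against 4.07% of all promoters and 5.66% of those of tested genes. In no member window did matches of different motifs overlap. A match describes the letters and is not a measured binding site.

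In YAC128 mice given aCSF, the members of complexes I, III, IV and V sat slightly below their WT littermates, and no single member passed the test. The fitted log2 fold change was below 0 for 77 of 83 members, with a median of -0.14, whereas 50.7% of the 10679 tested genes were below 0, with a median of 0.00 (to 2 decimals). No member was called at an adjusted p under 0.05 by edgeR's quasi-likelihood test, where 0.0749% of all tested genes were called. At an unadjusted p under 0.05, 18 members were lower and 0 higher, beside 5.76% of all tested genes lower and 6.79% higher. DESeq2 on the same counts gave an adjusted p to 1155 genes after its own filter on low counts, and called 3 of the 57 members among them (Ndufs7, Uqcrc1 and Cox4i1), a share close to the 4.68% of those genes that it called.

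The median of the members changed with the covariate and the scaling used. It was -0.06, with 3 members lower at an unadjusted p under 0.05, when the percentage of reads outside gene features entered as a covariate. When total counts were the scaling it was -0.07, with 4 lower. The median over all tested genes also rose with that scaling, as given below, so the change was not confined to the members. For the covariate fit that median is not given here, nor for either fit the share of all tested genes lower at that threshold. The smaller numbers of members are therefore not shown to be particular to the members. General neuron markers were also below 0, 10 of 10 with a median of -0.19.

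The direction was alike in the 4 complexes, as the plot of fold changes by complex shows. Complex IV had all 14 members below 0, with a median of -0.18. In complex I, 33 of 36 were below 0 with a median of -0.13, and the 7 core subunits, which hold the flavin, the iron-sulfur clusters and the quinone site, were all below 0 with a median of -0.15. Complex V had 15 of 16 below 0 (median -0.14), complex III 7 of 8 (median -0.11) and the assembly factors 7 of 8 (median -0.10). The 6 members above 0 were Ndufs5 (0.13), Atp5l (0.08), Ndufaf7 (0.06), Uqcrb (0.04), Ndufb3 (0.03) and Ndufa12 (0.03). In bulk tissue, fewer cells of a type and less RNA per cell cannot be told apart.

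**Figure D1:**
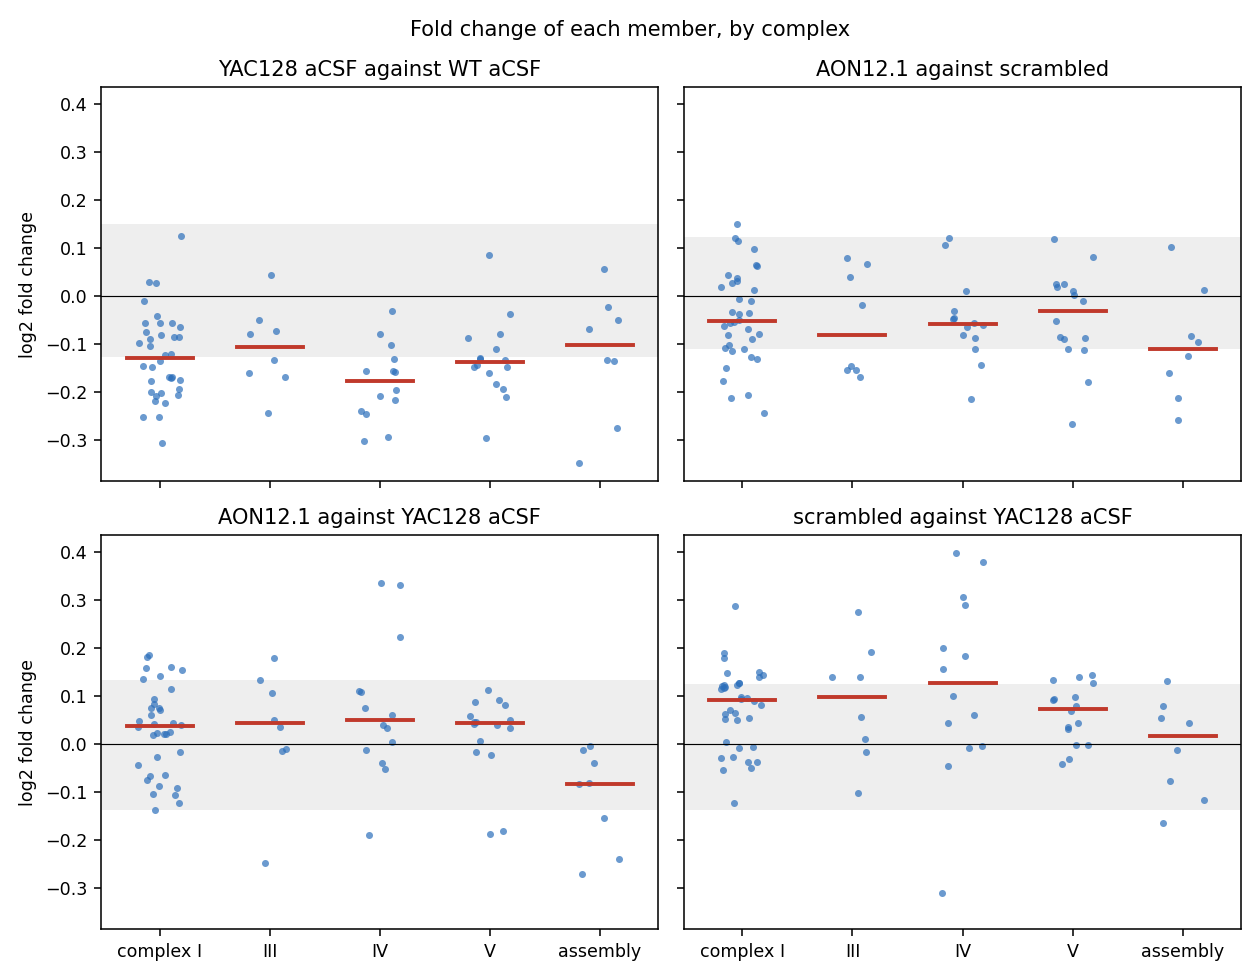
Log2 fold change of each member (points, by complex on the x axis; 82 members, Atp5s not drawn) in 4 comparisons, with the median of each complex as a red bar and the middle 50% of all tested genes as a grey band. In YAC128 aCSF against WT aCSF all 14 complex IV points lie below 0, and in scrambled against YAC128 aCSF most points lie above 0.

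Ndufs7, a core complex I subunit that carries the last iron-sulfur cluster before ubiquinone, had the smallest p of its complex in that comparison. Its lowest, median and highest values were 358, 381 and 458 CPM in YAC128 aCSF mice, against 402, 481 and 584 CPM in WT mice. The groups overlapped, with the YAC128 median below the lowest WT library. The log2 fold change was -0.31 ± 0.09 (SE; adjusted p = 0.172). With either oligonucleotide, Ndufs7 had 335, 397 and 480 CPM (AON12.1 libraries) or 354, 425 and 546 CPM (libraries of the scrambled group).

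Uqcrc1, a core protein of complex III, had 347, 381 and 432 CPM in YAC128 aCSF mice, against 380, 461 and 532 CPM in WT mice. Only the upper YAC128 libraries reached into the WT range. The log2 fold change was -0.24 ± 0.08 (adjusted p = 0.199), and against WT it was -0.26 ± 0.08 with AON12.1 (adjusted p = 0.116) and -0.11 ± 0.08 with the scrambled oligonucleotide (adjusted p = 0.681).

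Cox4i1, the largest nuclear subunit of cytochrome c oxidase, had 893, 1023 and 1147 CPM in YAC128 aCSF mice, against 1087, 1221 and 1339 CPM in WT mice. The overlap was confined to the range between 1087 and 1147 CPM. Its log2 fold change was -0.25 ± 0.08 (adjusted p = 0.204). Atp5a1, the alpha subunit of the catalytic head of ATP synthase, had 727, 764 and 863 CPM in YAC128 aCSF mice, against 730, 886 and 972 CPM in WT mice. Its log2 fold change against WT was -0.18 ± 0.07 in YAC128 aCSF mice (adjusted p = 0.303), -0.21 ± 0.07 with AON12.1 (adjusted p = 0.186) and -0.23 ± 0.07 with the scrambled oligonucleotide (adjusted p = 0.252), so none of the 3 YAC128 groups passed the test. These 3 comparisons share the WT libraries.

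Ndufv1, the core subunit that oxidises NADH, was chosen after its values were seen because it was low in all 3 YAC128 groups. Its lowest, median and highest values were 185, 230 and 259 CPM with AON12.1, 197, 218 and 261 CPM in the scrambled group and 185, 224 and 279 CPM with aCSF, against 244, 274 and 310 CPM in WT mice. Each YAC128 median lay below the lowest WT library. For the 3 YAC128 groups together against WT the log2 fold change was -0.28 ± 0.07 (adjusted p = 0.0792).

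**Figure D2:**
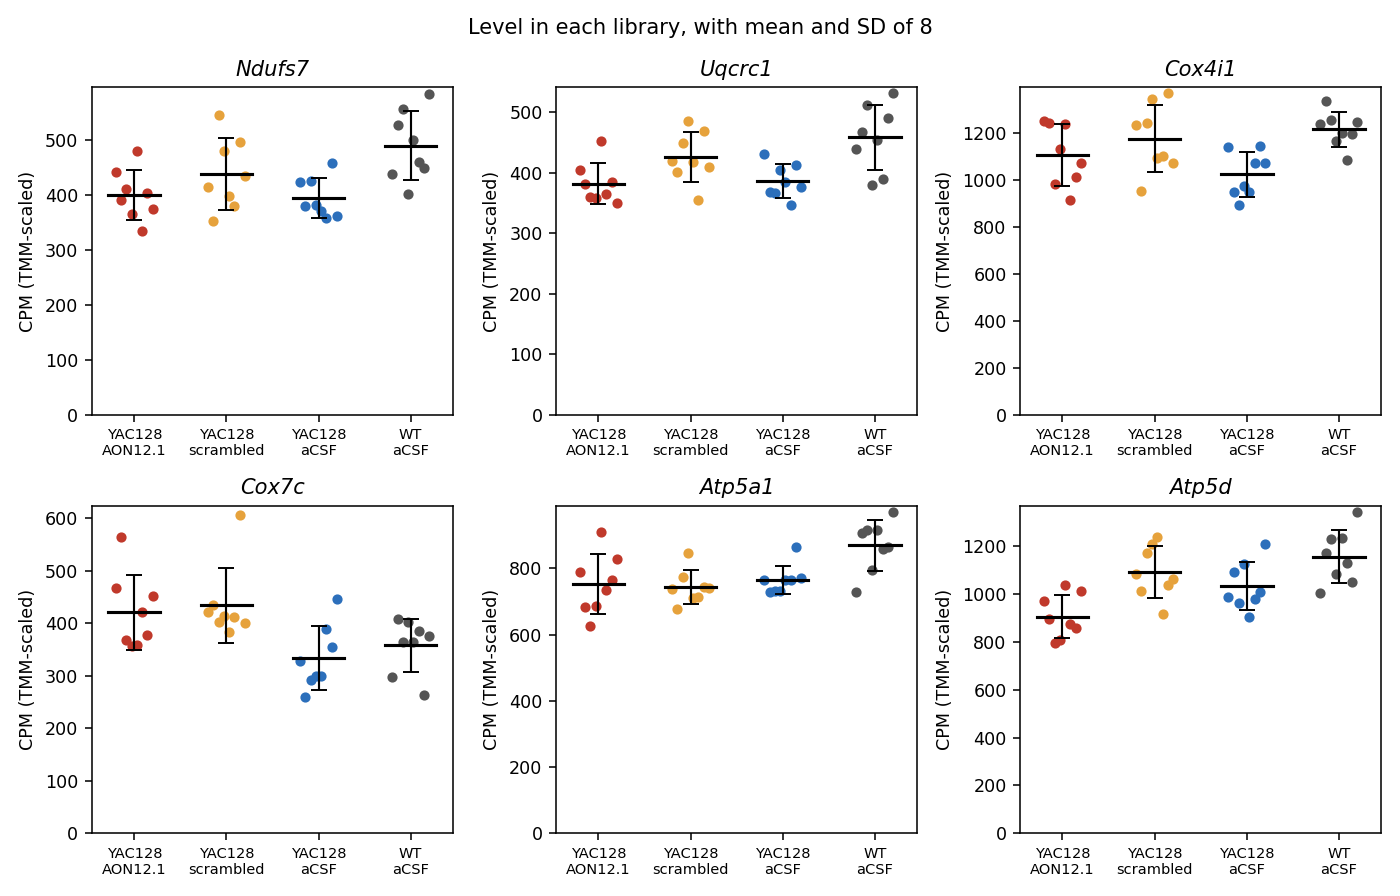
Level of 6 members in each library (points, TMM-scaled CPM on an axis that starts at 0) by group, with the mean and SD of 8 libraries. Atp5d is lowest in the AON12.1 group (median 883 CPM, against 1149 in WT), and Cox7c is higher in both oligonucleotide groups (medians 400 and 413 CPM) than in the YAC128 aCSF group (314).

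Taking the 3 YAC128 groups together against WT, 75 of 83 members were below 0, beside 50.1% of tested genes, with a median of -0.10 and no member was called, where 0.234% of tested genes were called. At an unadjusted p under 0.05, 16 members were lower and 0 higher, beside 6.79% and 6.73% of tested genes. DESeq2 called 2 of the 79 members it gave an adjusted p, Ndufv1 and Atp5a1, beside 0.876% of such genes. The test of any difference among the 4 groups called 0 members, where 0.777% of tested genes were called, and 13 members had an unadjusted p under 0.05, beside 14.9% of tested genes. Its smallest adjusted p over the members was 0.068, for Atp5d.

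Atp5d, the delta subunit of the central stalk of ATP synthase, was the only member that edgeR's test called in a comparison of groups, in AON12.1 against WT aCSF. The lowest, median and highest values were 795, 883 and 1037 CPM in the AON12.1 group, 914, 1071 and 1237 CPM in the scrambled group, 902, 997 and 1207 CPM in the YAC128 aCSF group and 1006, 1149 and 1341 CPM in the WT group. The AON12.1 libraries were the low ones, and the AON12.1 and WT ranges met only between 1006 and 1037 CPM. Against WT, the log2 fold change was -0.35 ± 0.08 (adjusted p = 0.0193), with a mean of 905 ± 90.9 CPM in the AON12.1 group and 1155 ± 110 CPM in WT mice (SD, n = 8 each).

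Against the other YAC128 groups Atp5d was not called, at -0.27 ± 0.08 on the log2 scale (adjusted p = 0.335) set against the scrambled group and at -0.19 ± 0.08 (adjusted p = 0.334) set against YAC128 aCSF. The call against WT was lost with no filter on low counts (-0.37, adjusted p = 0.0639), with the share of reads outside gene features as a covariate (-0.28, adjusted p = 0.0591), in libraries where that share was at most 25% (-0.30, adjusted p = 0.289), with only these groups in the fit (-0.34, adjusted p = 0.0507), and within each of the animal number series (-0.27, adjusted p = 0.576 in series 18; -0.38, adjusted p = 0.105 in series 19). It was also lost without AON12.1 replicate 3 (-0.32, adjusted p = 0.0524), without WT replicate 5 (-0.34, adjusted p = 0.0504) or without WT replicate 8 (-0.32, adjusted p = 0.0523).

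Over all members, AON12.1 against WT had 73 of 83 below 0, beside 48.4% of tested genes, with a median of -0.10. The 1 member called stands beside 0.562% of all tested genes called, and 0.328% called lower. At an unadjusted p under 0.05, 13 members were lower and 1 higher, beside 7.09% and 7.39% of tested genes. DESeq2 called 2 of 79 members, Atp5d and Uqcrc1, beside 1.36% of the genes it gave an adjusted p. The 8 assembly factors were all below 0 with a median of -0.20, and none was called. The smallest adjusted p among them was 0.238, for Ndufaf2, which helps to build complex I and had a log2 fold change of -0.43 ± 0.17.

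Scrambled against WT had 59 of 83 members below 0, beside 48.5% of tested genes, with a median of -0.06 and no call, where 0.169% of tested genes were called. At an unadjusted p under 0.05, 7 members were lower and 2 higher, beside 5.01% and 4.79% of tested genes, and DESeq2 called 0 of 75, beside 0.539% of its genes. The AON12.1 and scrambled comparisons use the same WT libraries.

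AON12.1 against scrambled, the comparison that separates the sequence of the oligonucleotide from the injection of one, showed small differences in the members. The median log2 fold change was -0.06, with 55 of 83 members below 0 beside 48.2% of tested genes, and every value lay between -0.27 and 0.15. No member was called, where 0.14% of tested genes were called. At an unadjusted p under 0.05, 3 members were lower (Atp5d, Ndufb11 and Ndufv3) and 0 higher, beside 3.86% and 3.39% of tested genes, and DESeq2 called 0 of 82, beside 0.227% of its genes.

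By complex, the medians for AON12.1 against scrambled were -0.05 in complex I, -0.08 in complex III, -0.06 in complex IV and -0.03 in complex V. Ndufb11, a membrane subunit of complex I, had 157, 197 and 244 CPM with AON12.1, against 211, 228 and 283 CPM in the scrambled group. The groups overlapped above 211 CPM, and the log2 fold change was -0.24 ± 0.09 (adjusted p = 0.525). Cox6a1, the widely expressed isoform of a cytochrome c oxidase subunit, had 483, 562 and 710 CPM with AON12.1, against 581, 649 and 812 CPM in the scrambled group, a log2 fold change of -0.22 ± 0.12 (adjusted p = 0.728). The members' median was 0.08 in the libraries of number series 18 alone (2 libraries in each of these groups), and between -0.08 and -0.03 when any 1 library was left out.

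Striatal projection neuron markers lay in the other direction in that comparison. All 15 were above 0 for AON12.1 against scrambled, with a median of 0.39 and no call, and their summed level was 6725 to 12314 CPM with AON12.1, against 3774 to 8899 CPM in the scrambled group. The median sums were 8538 and 7468 CPM. The 3774 CPM came from scrambled replicate 5, which also had the highest sum of cortical excitatory neuron markers of all libraries (4464 CPM). None of the 15 was at 0 in the libraries. The part of these neurons, striatal or cortical, in the members' values was not tested.

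For AON12.1 against YAC128 aCSF the members lay near 0, with 31 of 83 below 0, beside 50% of tested genes, and a median of 0.03. No member was called, where 0.309% of tested genes were called, and at an unadjusted p under 0.05 2 were higher (Cox7c and Cox5b) and 1 lower (Atp5d), beside 6.53% and 5.03% of tested genes. DESeq2 called 0 of 71, beside 2.32% of its genes. Uqcrb, a small subunit of complex III, was at -0.25 ± 0.14 on the log2 scale (adjusted p = 0.503).

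The scrambled group against the same YAC128 aCSF libraries had most members above 0, with 24 of 83 members below 0, beside 50.4% of tested genes, and a median of 0.08. No member was called, where 0.0843% of tested genes were called. At an unadjusted p under 0.05, 8 members were higher and 0 lower, beside 5.51% and 4.33% of tested genes, and DESeq2 called 0 of 70, beside 0.62% of its genes. Of the 8, 4 belonged to complex IV (Cox7c, Cox5b, Cox6a1 and Cox4i1), 2 to complex III (Uqcr11 and Uqcrq) and 2 to complex I (Ndufb11 and Ndufa13). The medians were 0.13 in complex IV, 0.10 in complex III, 0.09 in complex I and 0.07 in complex V.

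Cox7c, a small membrane subunit of cytochrome c oxidase, had the smallest p of its complex for both oligonucleotides. The lowest, median and highest values were 356, 400 and 563 CPM with AON12.1, 382, 413 and 606 CPM in the scrambled group, 259, 314 and 446 CPM in YAC128 aCSF mice and 264, 370 and 408 CPM in WT mice. Every library of both oligonucleotide groups lay above the YAC128 aCSF median, and the ranges overlapped. Against YAC128 aCSF, the log2 fold change was 0.33 ± 0.11 with AON12.1 (adjusted p = 0.202) and 0.38 ± 0.11 with the scrambled oligonucleotide (adjusted p = 0.247).

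Within animal number series 18, Cox7c for AON12.1 against YAC128 aCSF was 0.81 (adjusted p = 0.0224), with 2 AON12.1 libraries in that fit, and within series 19, with 6, it was 0.06 (adjusted p = 0.954). A processed pseudogene, Gm12338, matches the 3′ end of Cox7c without a mismatch over 119 bases and held 19.8% of their summed counts. Its own log2 fold change against YAC128 aCSF was 0.41 with AON12.1 (adjusted p = 0.0818) and 0.38 with the scrambled oligonucleotide. With the pseudogene copies added, Cox7c came to 0.34 (adjusted p = 0.130) and 0.37 (adjusted p = 0.242) in these 2 comparisons.

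Cox5b, a matrix-facing subunit of complex IV, had 310, 347 and 397 CPM in the scrambled group, against 222, 273 and 351 CPM in YAC128 aCSF mice (log2 fold change 0.31 ± 0.10, adjusted p = 0.258). Uqcr11, a small subunit of complex III, had 242, 262 and 296 CPM in the scrambled group, against 189, 212 and 291 CPM in YAC128 aCSF mice. Its log2 fold change was 0.28 ± 0.09 (adjusted p = 0.299), and the YAC128 aCSF range reached 291 CPM through 1 library, replicate 8, with the next at 225. Ndufb11 had 211, 228 and 283 CPM, against 160, 193 and 225 CPM in YAC128 aCSF mice (0.29 ± 0.09, adjusted p = 0.272), and 0.21 with pseudogene copies added. Atp5g1, which encodes the c subunit of the ATP synthase ring, had the smallest p of complex V at 0.13 ± 0.08 (adjusted p = 0.612).

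Cortical excitatory neuron markers were higher in the same comparison, with 7 of 7 tested markers above 0, a median of 0.49 and no call. Their summed level was 1457 to 4464 CPM in the scrambled group, against 1192 to 3175 CPM in YAC128 aCSF mice. Choroid plexus markers ran the other way, 4 of 4 tested below 0 with a median of -0.66. Their sum was 164 to 235 CPM in the scrambled group, against 179 to 3988 CPM in YAC128 aCSF mice, where 1 library, replicate 4, held the highest value. None of the markers on these lists was at 0 in every library, and their part in the members' values was not tested.

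Several subunits of complexes IV and V have tissue-specific isoforms. Cox4i1 and Cox4i2 encode alternative forms of subunit 4, and Cox4i2 had medians of 7.53, 8.75 and 10.8 CPM in the AON12.1, scrambled and YAC128 aCSF groups, against 13.2 CPM in WT mice. None of its contrasts was called, and against WT its log2 fold changes were -0.40 ± 0.26, -0.52 ± 0.26 and -0.21 ± 0.25 in the same order. Cox6a2, the heart and muscle form of subunit 6a, had medians of 16.6, 19.2 and 15.4 CPM in the 3 YAC128 groups in that order, against 16.8 CPM in WT mice. Its highest value, 35.6 CPM, was in AON12.1 replicate 2.

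Cox7a2l, known for its part in joining complexes III and IV into supercomplexes, had 124, 145 and 241 CPM with AON12.1, 137, 167 and 238 CPM in the scrambled group and 139, 168 and 222 CPM in YAC128 aCSF mice, against 156, 196 and 317 CPM in WT mice. All 4 ranges overlapped, and for the 3 YAC128 groups together against WT the log2 fold change was -0.32 ± 0.12 (adjusted p = 0.228). Cox7a2, the widely expressed form of subunit 7a, was at -0.15 ± 0.09 in that comparison (adjusted p = 0.465), and Cox7a1, the muscle form, had 101 counts over all 32 libraries. Cox6b1 was at -0.17 ± 0.07 (adjusted p = 0.308) and Cox7b at -0.03 ± 0.08 (adjusted p = 0.907), while the testis forms Cox6b2 and Cox7b2 fell under the count threshold.

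Cox8a, the main form of subunit 8, was at -0.11 ± 0.09 for the 3 YAC128 groups against WT (adjusted p = 0.598), and Cox8b and Cox8c had 19 and 0 counts in all. Ndufa4, now assigned to complex IV, was at -0.13 ± 0.08 (adjusted p = 0.499), and Ndufa4l2 reached 10 counts in 1 library. The 3 genes for the identical mature c subunit were at -0.07 ± 0.06 (Atp5g1), -0.24 ± 0.19 (Atp5g2) and -0.11 ± 0.07 (Atp5g3), none of them called.

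The mean level of the members in a library, on the scale log2(CPM + 1) and relative to the mean of the 32 libraries, averaged -0.04 ± 0.09 in the AON12.1 group, 0.02 ± 0.10 in the scrambled group and -0.06 ± 0.10 in the YAC128 aCSF group, against 0.08 ± 0.08 in WT mice (SD, n = 8 each). Its lowest, median and highest values were -0.16, -0.06 and 0.10 in the AON12.1 group, -0.12, 0.03 and 0.14 in the scrambled group, -0.19, -0.07 and 0.12 in the YAC128 aCSF group and -0.04, 0.08 and 0.20 in the WT group. The WT libraries were the highest on average, and all 4 groups overlapped. The members' share of the gene counts averaged 2.78% ± 0.19 with AON12.1, 2.88% ± 0.20 with the scrambled oligonucleotide and 2.79% ± 0.18 in YAC128 aCSF mice, against 2.97% ± 0.13 in WT mice (SD, n = 8 each).

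**Figure D3:**
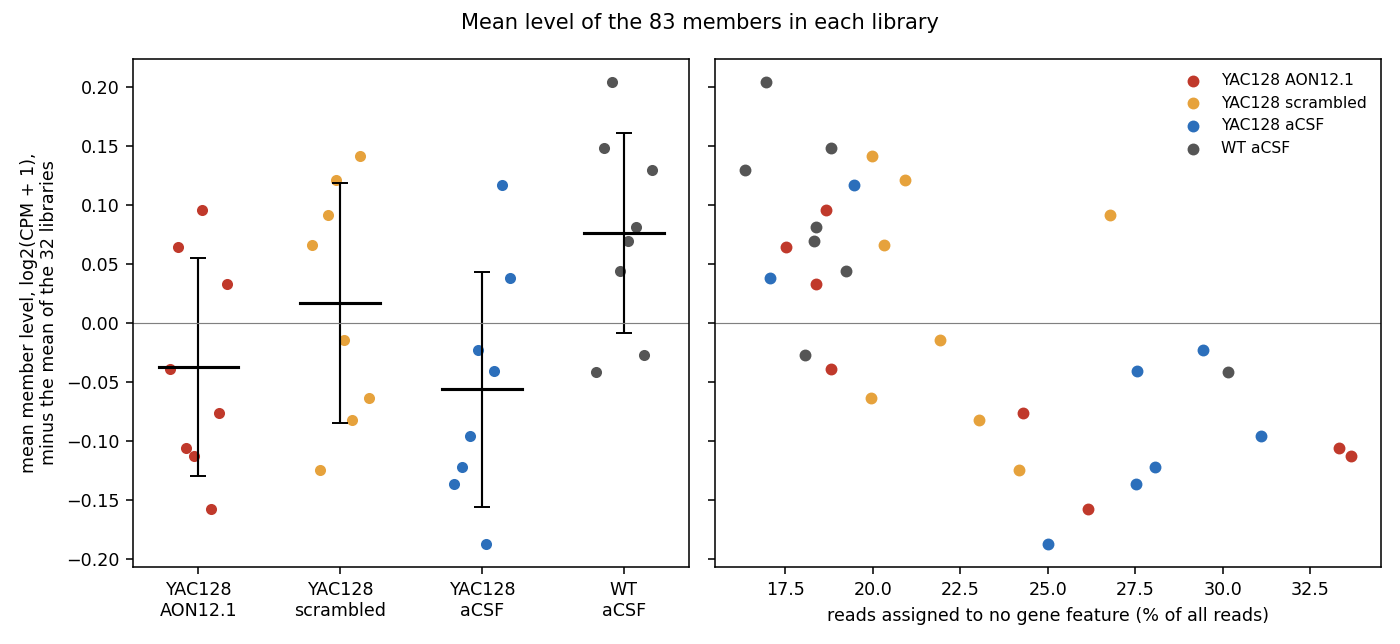
Mean level of the 83 members in each library by group (left, with mean and SD of 8), and the same values against the percentage of reads assigned to no gene feature (right). WT libraries lie highest on average (median 0.08), and libraries with more reads outside gene features tend to lie lower.

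Libraries with more reads outside any gene feature had less of the members. That share, given in the summary lines of the deposited count files, averaged 23.8% ± 6.70 with AON12.1, 22.1% ± 2.41 with the scrambled oligonucleotide and 25.7% ± 4.92 in YAC128 aCSF mice, against 19.5% ± 4.40 in WT mice (SD, n = 8 each), so the order of the groups was the reverse of that by the members' mean level, though not of that by their share of the counts. Within groups, 16 members fell with the share at an adjusted p under 0.05 and 0 rose, where 14.6% of tested genes were called, 5.08% lower and 9.49% higher. The slope was below 0 for 73 of 83 members, with a median of -0.12 per 10 percentage points, against 53.7% of tested genes and a median of -0.02.

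The members called for that slope came from all 4 complexes, 3 from complex I, 3 from complex III, 4 from complex IV and 6 from complex V, with slopes between -0.28 and -0.16. Cox5a, a matrix-facing subunit of complex IV, had the smallest adjusted p, 0.000248, with a slope of -0.27 ± 0.05. Among the called members Cox8a had the steepest at -0.28 ± 0.07 (adjusted p = 0.00479), followed by Cox7c at -0.27 ± 0.07 (adjusted p = 0.0107). Ndufs5 fell more steeply than Cox8a but was not called. Its slope lay between -0.58 and -0.21 when 1 library was left out (adjusted p between 0.299 and 0.753). In complex V the called members included the alpha and beta subunits of the catalytic head (Atp5a1 and Atp5b), the gamma subunit (Atp5c1) and Atp5d. In complex III they included the Rieske protein Uqcrfs1. When 1 library was left out, the slope of Atp5d was called in 7 of 32 fits (adjusted p between 0.0352 and 0.137) and that of Atp5a1 in 30. The 2 steepest positive slopes belonged to the assembly factors Ndufaf7 (0.24 ± 0.12, adjusted p = 0.207) and Ndufaf4 (0.22 ± 0.13, adjusted p = 0.270).

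The number of members called for the slope changed with the libraries in the fit. It was 0 within number series 18 and 0 within number series 19, and 6 to 15 when 1 library was left out. The fits within a series hold fewer libraries, and calls over all tested genes in them are not given here. The part of the smaller fits was not tested. With the share as a covariate, 66 of 83 members were below 0 in YAC128 aCSF against WT. In libraries with a share of at most 25% the median was -0.09 and 69 members were below 0. With total counts as the scaling, 66 members were below 0 too, beside a median of 0.06 over all tested genes. The percentages of all tested genes below 0 in these fits are not given here. The part of the no-feature share in the difference between the groups was not tested beyond these values.

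Marker genes of most cell types of the striatum lay on the same side of 0 as the members in YAC128 aCSF against WT. None of the general neuron markers was called, and their sum was 4763 to 5612 CPM in YAC128 aCSF mice, against 5272 to 6341 CPM in WT mice. Of the striatal projection neuron markers 14 of 15 were below 0, with a median of -0.29 and 2 called (Adora2a and Penk, which mark neurons of the indirect pathway), and their sum was 3889 to 7900 CPM, against 5747 to 12511 CPM in WT mice. Astrocyte markers were below 0 in 7 of 10 (sum 3048 to 3408 CPM, against 3434 to 4122 CPM), oligodendrocyte markers in 7 of 10 (4614 to 6452 CPM, against 6143 to 8281 CPM), microglia markers in 9 of 10 (506 to 760 CPM, against 616 to 817 CPM) and vessel markers in 2 of the 8 tested (308 to 391 CPM, against 326 to 397 CPM). None of these markers was at 0 in every library. Their part in the members' difference was not tested.

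The rest of the pathway showed no call in YAC128 aCSF against WT. Of the carriers and channels that move ATP and phosphate or buffer ATP, 7 of 8 were below 0 with a median of -0.16, and 5 were lower at an unadjusted p under 0.05. The leading ones were Ckb, brain creatine kinase (-0.29 ± 0.09, adjusted p = 0.183), and Slc25a4, an ADP/ATP exchanger of the inner membrane (-0.22 ± 0.07, adjusted p = 0.207). Complex II had 3 of 4 below 0 with a median of -0.05, led by Sdhb, its iron-sulfur subunit (-0.23 ± 0.08, adjusted p = 0.235). Both cytochromes were below 0, Cycs at -0.21 ± 0.13 (adjusted p = 0.498) and Cyc1 at -0.07 ± 0.09 (adjusted p = 0.800).

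Other groups had values on both sides of 0. The mitochondrial genome's own subunits had 6 of 7 tested members below 0 with a median of -0.09, and the 13 genes together, 4 of them at 0 in every library, had 10338 to 18326 CPM in YAC128 aCSF mice, against 14122 to 19558 CPM in WT mice. Assembly factors other than the members had 23 of 36 below 0 (median -0.06) and coenzyme Q synthesis 5 of 12 (median 0.05). Transcription regulators of respiratory genes had 4 of 12 below 0 with a median of 0.07, among them Esrra, the estrogen-related receptor that works with PGC-1 coactivators, at -0.20 ± 0.10 (adjusted p = 0.379), and Nrf1 at 0.28 ± 0.20 (adjusted p = 0.590).

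Those lists also had no call in the comparisons of the YAC128 groups. For AON12.1 against scrambled, the ATP carriers and channels had 4 of 8 below 0 (median 0.01) and the mitochondrial genome's subunits 4 of 7 (median -0.05). Against YAC128 aCSF, the mitochondrial genome's subunits had 1 of 7 below 0 with AON12.1 (median 0.12) and 1 of 7 with the scrambled oligonucleotide (median 0.21).

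Ndufs5, an accessory subunit of complex I, varied more between libraries than any other member. The pooled SD within groups of log2(CPM + 1) was 1.15, against a median of 0.19 over the members and 0.32 over all tested genes. Its values fell into separate ranges, 17.7 to 63.4 CPM in 11 libraries and 122 to 259 CPM in the other 21, with none between. The low range held 2 AON12.1, 3 scrambled, 3 YAC128 aCSF and 3 WT libraries, so both ranges occurred in every group, and in both animal number series. No contrast of Ndufs5 was called, and the largest was 0.31 ± 0.43 for AON12.1 against WT (adjusted p = 0.784).

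The processed pseudogene BC002163 matches the 3′ end of Ndufs5 without a mismatch over 186 bases and held 48.7% of their summed counts. It had 69.0 to 215 CPM, a 3.12-fold range, against a 14.7-fold range for Ndufs5. The sum of both ran between 154 and 360 CPM, a 2.33-fold range, with a pooled SD of 0.35. It was 154 to 257 CPM in the libraries of the low Ndufs5 range and 213 to 360 CPM in the others. The sum thus still tended to be lower in the low range, with an overlap. The library with the lowest Ndufs5, WT replicate 1, had 17.7 CPM of Ndufs5 and 173 CPM of BC002163, and the library with the highest, AON12.1 replicate 8, had 259 and 101 CPM. Reads that fit both loci could be counted at either or at neither, and how the counting treated them was not tested.

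**Figure D4:**
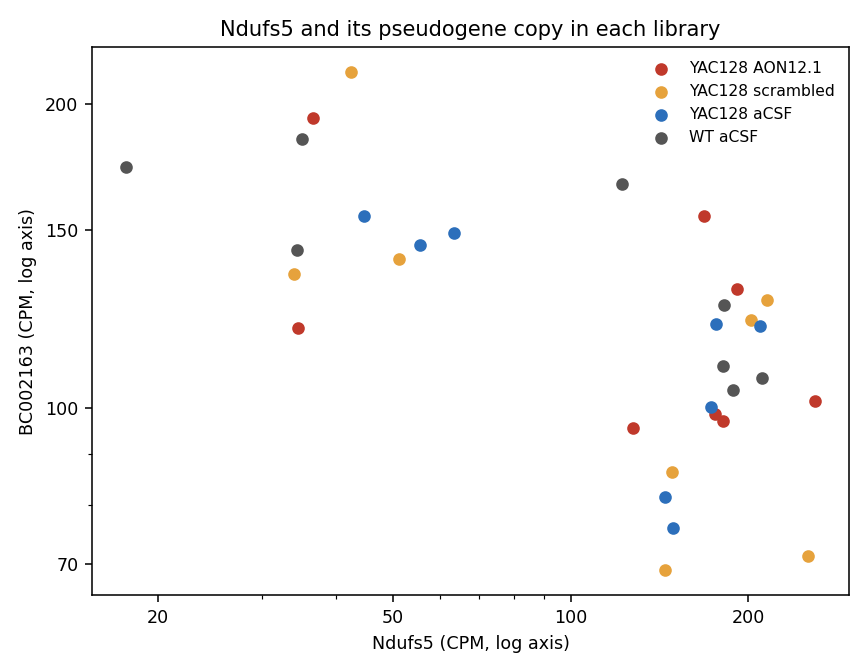
Ndufs5 (x axis) and its pseudogene copy BC002163 (y axis) in each of 32 libraries, in TMM-scaled CPM on log axes, coloured by group. The libraries form a low Ndufs5 range up to 63.4 CPM and a high one from 122 CPM, each with libraries of all 4 groups.

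Near-identical copies touched other members too. Of the 83, 21 matched a transcript of another gene, pseudogene or not, with at least 95% identity over at least 100 of their last 300 bases. Of these, 19 had copies with counts, and in 10 members the copies held over 5% of the summed counts. The share of all pseudogene copies in the summed counts was 72.5% for Atp5l (8 copies with counts, led by Gm10221), 63.6% for Atp5g2 (Gm10175), 46.0% for Atp5o (Gm5436), 41.1% for Ndufs3 (Gm12251), 31.3% for Ndufb11 (Gm6444) and 20.8% for Atp5h (Gm10250 and Gm4953). Reads of these members may have been counted at the copies, or the reverse, which was not tested. For Ndufb2 and Ndufb6 the copy was an overlapping gene, Braf and Smim27, and the use of strand in counting is not stated in the sources used here. With pseudogene counts added to each member, 78 of 83 were below 0 in YAC128 aCSF against WT, with a median of -0.14.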

How the data were processed

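Striatal RNA (100 ng) was turned into 3′ libraries, per the labels' protocols, with an oligo-dT primer carrying a molecular identifier (modified mcSCRB-seq). Per the submitters' processing notes, FastQC, cutadapt 2.10, STAR 2.7.5a and HTSeq 0.12.4 were used, with the GRCm39 build. Whether molecular identifiers were collapsed or strand was used is not stated in the sources used here. The deposited files hold raw counts per gene with 5 summary lines that stayed out of library sizes and tests. The no-feature share is the first of these lines as a percentage of a file's sum (16.3% to 33.7%). Names came from a GRCm38 annotation (52081 features, 99.806% of counts), and promoters from RefSeq on GRCm38.p6.

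Counts were fitted with edgeR 4.0.16 in R 4.3.3 (TMM, filterByExpr at min.count 10 and min.total.count 15, quasi-likelihood test, 1 coefficient per group, all 32 libraries), with Benjamini-Hochberg adjustment over 10679 genes. Fold changes are log2 ± SE, and a call is an adjusted p under 0.05. CPM are TMM-scaled. Slopes on the no-feature share are per 10 percentage points within groups. Copies were sought with blastn 2.17.0+. DESeq2 1.42.0, other scalings, filters, covariates, subsets and leaving out each library were tried. Scripts were tested on simulated data.

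Members and lists were chosen with earlier results of these data known. Members named by rule were those called and the member with the smallest p of each complex in each of 4 comparisons. The rule also took the 2 with the smallest p among the 4 groups, the 2 steepest slopes in each direction and the isoform sets. Other members, such as Ndufv1, were named outside it, after their values were seen or for their copies. The checks of named members below leave these out. Genes of the lists were named by smallest p, at most 2 per list. One member that this rule names is not reported here. Each library is a separately numbered animal. Comparisons with a group in common share its libraries.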

Additional observations from a re-analysis of the deposited data

Results flagged for a closer look

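In 120 sets of 8 libraries (the named members, the no-feature share, the members' share and their mean level, each in the 4 groups), 8 libraries lay apart from the other 7 of their group by Dixon's criterion, and chance flags about 1 in 20 sets. Cox7c was 606 CPM in scrambled replicate 7, with the next library at 435. Without that library, Cox7c for scrambled against YAC128 aCSF was 0.29 on the log2 scale, against 0.38 with it. Uqcr11 was 291 CPM in YAC128 aCSF replicate 8 (next 225), Atp5a1 was 863 CPM in YAC128 aCSF replicate 7 (next 770) and Ndufb11 was 272 CPM in WT replicate 4 (next 220). Cox7a2l was 238 CPM in scrambled replicate 4 (next 175). Among the weakly counted members, Cox6a2 was 35.6 CPM in AON12.1 replicate 2 (next 23.1) and Atp5g2 was 42.5 CPM in YAC128 aCSF replicate 3 (next 26.1). The no-feature share was 30.2% in WT replicate 1, with the next WT library at 19.2%.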

How the results depend on the processing

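Over the alternative values of the named members none was called in the other direction, 8389 kept their side of the threshold, 164 lost a call and 7 gained one. A value called in neither fit counts as kept, also where its sign changed, and most were of this kind. Only Atp5d in AON12.1 against WT and the called slopes of named members had a call to lose. No member was called in AON12.1 against scrambled, scrambled against YAC128 aCSF or scrambled against WT under any setting run. For YAC128 aCSF against WT, DESeq2 called 3 members, against 0, and leaving out 1 library gave 0 throughout. For AON12.1 against WT, DESeq2 called 2, and 0 were called with no filter, with the share of reads outside gene features as covariate, with only the 2 groups compared, within number series 18, within number series 19 and with shares up to 25% (0 to 1 when 1 library was left out). For the 3 YAC128 groups against WT, DESeq2 called 2 and leaving out 4 libraries that earlier results had set apart (AON12.1 replicate 2, scrambled replicate 5, YAC128 aCSF replicate 4 and WT replicate 1, chosen after seeing the data) called 1 (0 to 2 when 1 was left out). For AON12.1 against YAC128 aCSF, number series 18 gave 1 call. Among the 4 groups, total counts as scaling gave 1 and the stricter filter (minimum count 30) gave 1 (0 to 1 when 1 was left out). For the slope, 16 members were called in the fit reported above. Calls numbered 10 with upper-quartile scaling, 7 with total counts, 9 with the stricter filter and 3 without the 4 libraries. They numbered 0 and 0 within the number series, and 6 to 15 when 1 library was left out. The causes were not tested. Counts in this section are of members alone, so they do not show whether calls over all tested genes changed too. The median for AON12.1 against scrambled was 0.07795 within number series 18, against -0.06. When 1 library was left out, medians lay between -0.16 and -0.11 (YAC128 aCSF against WT), -0.08 and -0.03 (AON12.1 against scrambled), 0.00 and 0.05 (AON12.1 against YAC128 aCSF), 0.04 and 0.10 (scrambled against YAC128 aCSF), -0.13 and -0.09 (AON12.1 against WT), -0.07 and -0.03 (scrambled against WT), -0.11 and -0.07 (3 YAC128 groups against WT), and -0.13 and -0.10 (slope). Members lower at an unadjusted p under 0.05 in YAC128 aCSF against WT numbered 9 to 22 when 1 library was left out, 4 with total counts and 3 within number series 19, against 18. No paired analysis was possible because the labels give no replicate numbers that groups share. Counts near 10 per library (Cox4i2, Cox6a2) leave wide errors, and molecular identifiers may not have been collapsed.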
